A study of Mus musculus with 12 samples.

Results

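A set of 10 of the 25749 genes in each deposited table was followed, under the heading of chemokines that draw myeloid cells. The 10 were Ccl2, Ccl7, Ccl8, Ccl12, Ccl3, Ccl4, Ccl5, Cxcl10, Cxcl12 and Cxcl16. They were matched by gene symbol, and all 10 were listed for all 12 libraries. Total RNA was taken from the brains of B6 mice, males of 13 weeks, in 3 groups of 4 mice. The first group was injured and received continuous anti-LFA1/VLA4, antibodies against integrins by which leukocytes hold to the vessel wall, and is called antibody-treated below. The second was injured without the antibodies, and the third was uninjured. The series title names the injury as cerebrovascular. At day 20 after injury the mice were perfused with saline and a cube of tissue, 3 mm on each side, was snap frozen. The uninjured mice have no day of injury to count from. The labels call the samples biological replicates from different mice and give no antibody dose, no control antibody and no position for the cube in uninjured brains.

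Chemokines are small secreted proteins that bind G protein-coupled receptors on leukocytes and guide them along a concentration gradient. Signalling through these receptors also switches leukocyte integrins such as LFA1 and VLA4 to their adhesive state, which arrests the cells on endothelium before they leave the blood. Ccl2, Ccl7 and Ccl12 attract monocytes through Ccr2, while Ccl3, Ccl4 and Ccl5 attract monocytes and T cells. Cxcl10 is an interferon-induced ligand of Cxcr3. Cxcl12 is made in healthy brain, vessels and meninges and binds Cxcr4, and Cxcl16 is a membrane-bound ligand of Cxcr6.

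Most of these genes lie in a pair of clusters of 4 and 3 genes on chromosome 11 (GRCm38). Ccl2 (ENSMUSG00000035385, 82035571 to 82037453), Ccl7 (ENSMUSG00000035373, 82045712 to 82047525), Ccl12 (ENSMUSG00000035352, 82101845 to 82103400) and Ccl8 (ENSMUSG00000009185, 82115185 to 82116799) sit on the plus strand within 81.2 kb. Ccl5 (ENSMUSG00000035042, 83525778 to 83530518, minus strand), Ccl3 (ENSMUSG00000000982, 83647844 to 83649355, minus strand) and Ccl4 (ENSMUSG00000018930, 83662584 to 83664683, plus strand) follow after a gap of 1409.0 kb and span 138.9 kb. Cxcl16 (ENSMUSG00000018920, 70453983 to 70459984, minus strand) is on chromosome 11 outside both clusters. Cxcl10 (ENSMUSG00000034855) occupies 92346638 to 92348889 on the minus strand of chromosome 5. Cxcl12 (ENSMUSG00000061353) occupies 117168535 to 117181367 on the plus strand of chromosome 6.

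Promoters were available from RefSeq (GRCm38.p6) for 5 of the 10 genes: Cxcl10, Ccl8, Ccl12, Ccl3 and Cxcl12. The 250 bases before the start of Cxcl10 and Ccl8, which had the clearest differences after antibody treatment, and of Ccl12, the near neighbour of Ccl8, are shown 5′ to 3′ in the direction of transcription, with motif matches in capitals. The windows are chr5:92348890-92349139 on the minus strand for Cxcl10, chr11:82114935-82115184 on the plus strand for Ccl8 and chr11:82101595-82101844 on the plus strand for Ccl12.
Cxcl10: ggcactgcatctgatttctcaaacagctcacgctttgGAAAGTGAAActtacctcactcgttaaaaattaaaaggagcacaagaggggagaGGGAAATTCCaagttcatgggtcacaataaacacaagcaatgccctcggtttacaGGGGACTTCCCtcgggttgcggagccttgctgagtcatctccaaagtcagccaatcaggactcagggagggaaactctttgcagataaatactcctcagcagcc
Ccl8: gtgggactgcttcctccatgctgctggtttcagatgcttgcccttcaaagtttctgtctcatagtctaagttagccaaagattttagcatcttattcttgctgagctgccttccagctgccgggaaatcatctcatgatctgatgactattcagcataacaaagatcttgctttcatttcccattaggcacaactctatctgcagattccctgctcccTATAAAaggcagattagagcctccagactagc
Ccl12: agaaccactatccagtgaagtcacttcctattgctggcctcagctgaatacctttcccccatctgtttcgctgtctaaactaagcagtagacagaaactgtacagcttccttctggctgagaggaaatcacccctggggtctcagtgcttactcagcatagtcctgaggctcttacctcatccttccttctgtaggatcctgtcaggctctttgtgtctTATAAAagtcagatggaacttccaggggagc

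The motifs searched, on both strands, were 3: the NF-kappaB consensus, GAAANNGAAA (the core that interferon-activated factors bind) and TATAAA. The Cxcl10 window held GAAANNGAAA at 213 to 204 bases before the start and matched the NF-kappaB consensus at 159 to 150 bases and at a pair of overlapping positions, 104 to 95 and 103 to 94. Ccl8 held TATAAA at 32 to 27 bases before its start and Ccl12 at 31 to 26 bases, and neither held the other motifs. The windows of Ccl3 and Cxcl12 held none of them. Among 32841 mouse promoters of the same length, 7.25% matched the NF-kappaB consensus, 2.98% held GAAANNGAAA and 12.37% held TATAAA. These are matches of letters and say nothing of whether a factor was bound.

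Depth and tissue makeup frame what follows. Exon reads per library numbered 13330379 to 13917157 in antibody-treated, 15507462 to 16121577 in injured and 15159988 to 15781229 in uninjured mice. An expected count of 3 reads, the upper 95% Poisson limit where 0 are counted, corresponded to 0.186 to 0.225 CPM (counts scaled to the library total). That limit covers counting error only. Reads across exon junctions were 22.6 to 25.7% of exon reads in antibody-treated, 27.5 to 30.9% in injured and 25.2 to 26.2% in uninjured libraries. Antibody-treated replicate 4 and uninjured replicate 1 had the extreme scores on principal component 1. In these bulk samples a change in the number of cells of a type and a change in RNA per cell cannot be told apart. All reads of the 10 genes were unique, 124 of 124 for Ccl8 and 667 of 667 for Cxcl16, for example.

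Levels were compared between genes in TPM, which is scaled to exon length and to the library. Cxcl12 was highest in every group, at 21.0 ± 2.83 TPM in antibody-treated, 22.4 ± 1.92 TPM in injured and 22.0 ± 2.05 TPM in uninjured mice (mean ± SD, n = 4 each). In antibody-treated mice Ccl8 came next at 8.56 ± 2.48 TPM, then Cxcl16 at 4.93 ± 0.556 TPM and Ccl12 at 3.81 ± 0.949 TPM. In injured and in uninjured mice Cxcl16 came second, at 3.88 ± 0.886 and 1.53 ± 0.191 TPM, followed by Ccl3, at 2.82 ± 1.15 and 1.40 ± 0.221 TPM. Below Cxcl12, the ranges of every gene and the next in order overlapped in every group, so those neighbours did not differ beyond their spread. Ccl8 stood far lower in the order outside the antibody-treated group, at 1.13 ± 0.552 TPM in injured and 0.695 ± 0.537 TPM in uninjured mice.

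Without Cxcl12, the 9 other genes summed to 34.5, 35.8, 28.6 and 39.5 TPM in antibody-treated replicates 1 to 4, to 14.8, 14.5, 19.0 and 18.6 TPM in injured mice, and to 8.97, 8.32, 7.06 and 5.18 TPM in uninjured mice. The 3 groups did not overlap. Cxcl12 made up 37.9 ± 6.02% of the summed TPM of all 10 genes in antibody-treated, 57.4 ± 3.15% in injured and 75.0 ± 4.74% in uninjured mice (SD, n = 4 each). These sums are a description and rest on 161 to 220 reads per antibody-treated library, 95 to 133 per injured library and 45 to 63 per uninjured library.

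**Figure D1:**
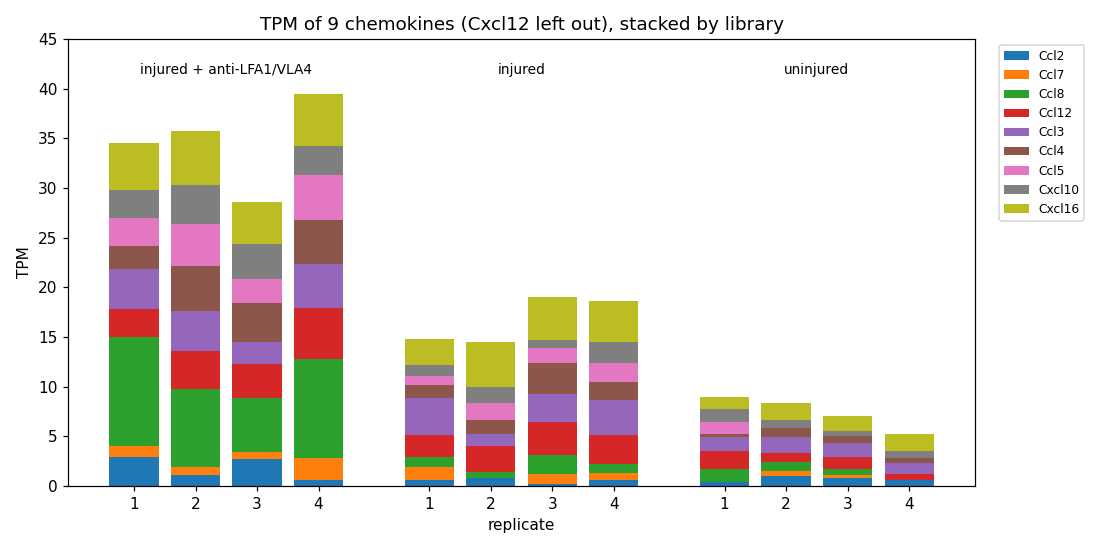
Stacked TPM of the 9 chemokines other than Cxcl12 in each of the 12 libraries, with replicates on the x axis and groups side by side. The stacks reach 28.6 to 39.5 TPM in antibody-treated, 14.5 to 19.0 TPM in injured and 5.18 to 8.97 TPM in uninjured mice, and the Ccl8 segment is widest in the antibody-treated libraries.

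Each pair of groups was tested in edgeR's quasi-likelihood model on the reads of all genes, and the comparisons with antibody-treated mice or uninjured mice share those libraries. A filter on low counts kept 14771 genes and 7 of the 10 chemokines, and dropped Ccl2, Ccl7 and Ccl5. Ccl8 passed the filter only through the antibody-treated libraries and so had to be higher there. Ccl12, Ccl3, Ccl4 and Cxcl10 reached its count in all 4 antibody-treated libraries but in at most 3 of the other 8, so their choice leans the same way. With only injured and uninjured mice in the model Ccl12, Ccl3 and Ccl4 failed the filter, so they too entered the test through the antibody-treated libraries. Counts among the tested chemokines are therefore given beside those of a fit with no filter, which held 20684 genes and all 10 chemokines.

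The first comparison set antibody-treated against injured mice. Skeletal muscle markers (6 of 7), red blood cell markers (5 of 5) and choroid plexus markers (6 of 6) were higher in antibody-treated mice, with none lower. Of 7 thalamus markers 1 was higher and 1 lower. Treatment and the tissue taken into the cube therefore cannot be told apart here either. Ccl8, Cxcl10 and Ccl4 passed the test as higher in antibody-treated mice, 3 of 7 tested chemokines, and none was lower. Over all genes tested, 10.9% were called higher and 10.7% lower. With no filter, 4 of 10 chemokines were called higher, Ccl2 being the fourth, against 7.86% of all genes. The antibody-treated libraries lay wholly above the injured libraries for 3 of 10 chemokines (Ccl8, Cxcl10 and Ccl5), against 8.64% of the 20684 genes. In the fit with no filter the median log2 fold change of all 10 chemokines was 1.01, and that of all genes 0.04. Without antibody-treated replicate 3, 5 of 8 tested chemokines were called, since Cxcl16 and Ccl5, which then passed the filter, were added.

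Antibody-treated mice were next set against uninjured mice. Where the cube lay in uninjured brains is not given, and 5 of 7 thalamus markers were higher in antibody-treated mice. Injury with treatment and tissue position therefore cannot be told apart here. All tested chemokines but Cxcl12 were called higher, 6 of 7, against 6.3% of all genes, and none was lower, against 3.22%. With no filter 7 of 10 were called higher, Ccl5 being the addition, against 4.38%. All 4 antibody-treated libraries lay above all 4 uninjured libraries for 8 of 10 chemokines (all but Ccl2 and Cxcl12), against 7.86% of the 20684 genes. The median log2 fold change with no filter was 1.86 among all 10 chemokines and 0.01 among all genes. With only these groups in the model 4 chemokines passed the filter, and 3 of the 4 were called (Ccl8, Cxcl10 and Cxcl16, with Cxcl12 not called), while Ccl12, Ccl3 and Ccl4 were not tested.

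Injured mice were set against uninjured mice of the same age. The labels give no position for the cube in uninjured brains, and thalamus markers differed between these groups, so injury and tissue position cannot be told apart. Cxcl16, Ccl12 and Ccl4 were called higher, 3 of 7, and were also the 3 of 10 chemokines whose groups did not overlap. None was lower. Background shares were 11.9% of genes called higher, 11% called lower and, among the 20684 genes, 12.8% with all injured libraries above all uninjured ones. With no filter only Cxcl16 was called, 1 of 10 against 5.92%, a share near that of all genes. The median log2 fold change with no filter was 0.94 among all 10 chemokines and 0 among all genes. Scaling by library size alone moved the median of the filtered genes to 0.11, against 0.03 as scaled here, and it kept the same number of chemokine calls, 3. Only 1 call was made without uninjured replicate 3 or 4, injured replicate 2, 3 or 4 or antibody-treated replicate 2.

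Without both antibody-treated replicate 4 and uninjured replicate 1, an alternative chosen after seeing the data, the calls numbered 2 in antibody-treated against injured, 5 in antibody-treated against uninjured and 2 in injured against uninjured mice. The calls lost were Ccl4 against injured mice (edgeR adjusted p = 0.0512), Ccl3 against uninjured mice (edgeR adjusted p = 0.127) and Ccl4 between injured and uninjured mice (edgeR adjusted p = 0.100).

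**Figure D2:**
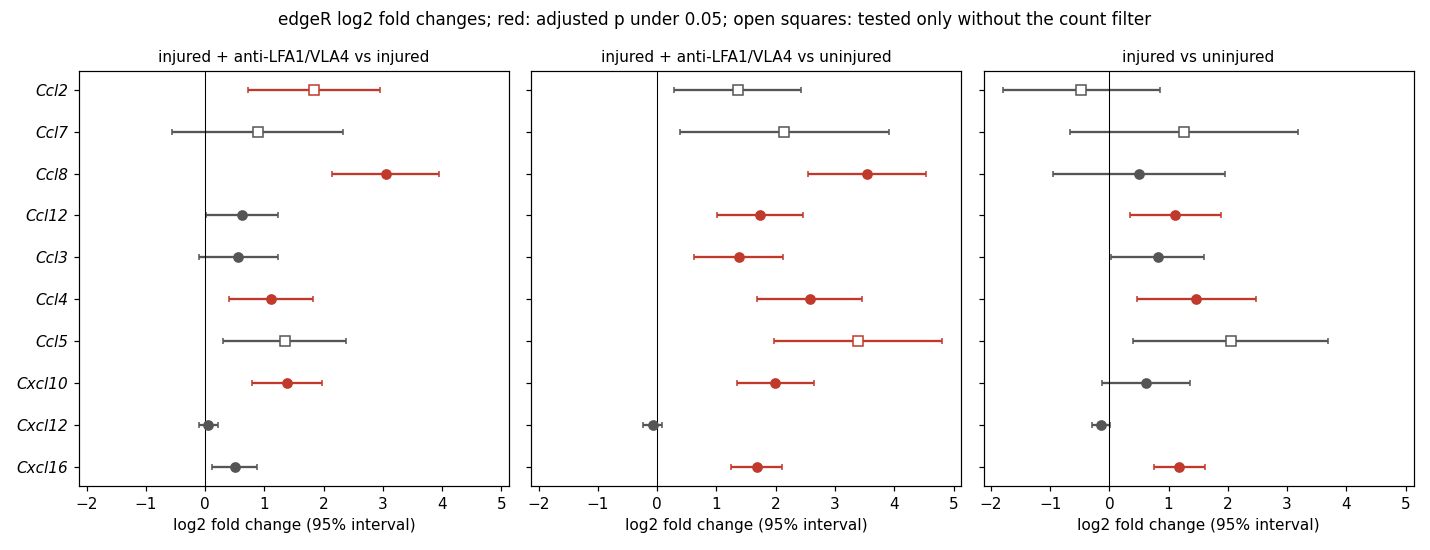
Log2 fold changes (x axis) of the 10 chemokines with 95% intervals, from edgeR, for antibody-treated against injured, antibody-treated against uninjured and injured against uninjured mice. Red marks an adjusted p under 0.05 and open squares mark genes tested only without the count filter. Ccl8 is farthest right in the first panel at 3.05, and Cxcl12 stays near 0 in all panels.

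Among Ccl2, Ccl7, Ccl8 and Ccl12, which share a cluster on chromosome 11, Ccl8 differed most after antibody treatment. Ccl8 had 33, 23, 15 and 30 reads in antibody-treated replicates 1 to 4, against 3, 2, 6 and 3 reads in injured mice and 4, 3, 2 and 0 reads in uninjured mice. The lowest antibody-treated library held more reads than any library of the other groups, and the injured and uninjured libraries overlapped near the counting floor. Normalised to effective library size, Ccl8 averaged 1.84 ± 0.613 CPM in antibody-treated, 0.214 ± 0.103 CPM in injured and 0.150 ± 0.114 CPM in uninjured mice (SD, n = 4 each). With no filter, which did not choose it, Ccl8 was 8.36-fold higher in antibody-treated than in injured mice (log2 fold change 3.06, SE 0.42, edgeR adjusted p = 0.000305). Against uninjured mice the log2 fold change with no filter was 3.53 (SE 0.46, edgeR adjusted p = 0.000143), and between injured and uninjured mice no difference was detectable at this depth (0.47, 95% interval -0.92 to 1.86). Of 101 Ccl8 exon reads in antibody-treated mice 41 crossed a junction, against 9 of 14 in injured and 2 of 9 in uninjured mice, so spliced Ccl8 RNA was present in each group.

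Ccl12, which lies beside Ccl8, followed another pattern. It had 9, 12, 10 and 16 reads in antibody-treated, 7, 9, 11 and 9 reads in injured and 6, 3, 4 and 2 reads in uninjured mice. Antibody-treated and injured libraries overlapped, and both groups lay above every uninjured library. Ccl12 was higher in antibody-treated than in uninjured mice by a log2 fold change of 1.74 (SE 0.34, edgeR adjusted p = 0.00542, or 0.00781 with no filter). It was also higher in injured than in uninjured mice (1.12, SE 0.36, edgeR adjusted p = 0.0394), a call that 1 library could end. Without uninjured replicate 2, 3 or 4, injured replicate 2, 3 or 4 or antibody-treated replicate 2, the edgeR adjusted p was 0.0565 to 0.125. With no filter it was 0.0652, with the replicate number as a block 0.0797 and in DESeq2's Wald test 0.0902. Antibody-treated over injured mice gave 0.62 (95% interval 0.01 to 1.23, edgeR adjusted p = 0.136), which did not pass.

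Ccl2, the best known monocyte attractant of the family, was scarce. It had 14, 5, 12 and 3 reads in antibody-treated, 3, 4, 1 and 3 reads in injured and 2, 5, 4 and 3 reads in uninjured mice. Only antibody-treated replicates 1 and 3 stood clear of the injured and uninjured libraries. Replicate 2 had as many reads as the highest of these, and replicate 4 lay within their range. Ccl2 failed the count filter, and with no filter it was higher in antibody-treated than in injured mice by a log2 fold change of 1.83 (SE 0.53, edgeR adjusted p = 0.0306). Against uninjured mice the value was 1.36 (SE 0.50, edgeR adjusted p = 0.126). Exon reads of Ccl2 summed to 34 in antibody-treated, 11 in injured and 14 in uninjured mice, while those across junctions numbered 7, 8 and 6. A predicted gene, Gm17268, overlaps Ccl2 on the other strand, shares 0 exon bases with it and had 0 reads in every library.

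Ccl7, another Ccr2 ligand, was also near the floor. It had 5, 4, 3 and 10 reads in antibody-treated, 6, 0, 5 and 3 reads in injured and 0, 3, 2 and 0 reads in uninjured mice. With no filter, antibody-treated over uninjured mice gave a log2 fold change of 2.15 (SE 0.83, edgeR adjusted p = 0.140) and antibody-treated over injured mice 0.89 (edgeR adjusted p = 0.444). Neither passed.

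**Figure D3:**
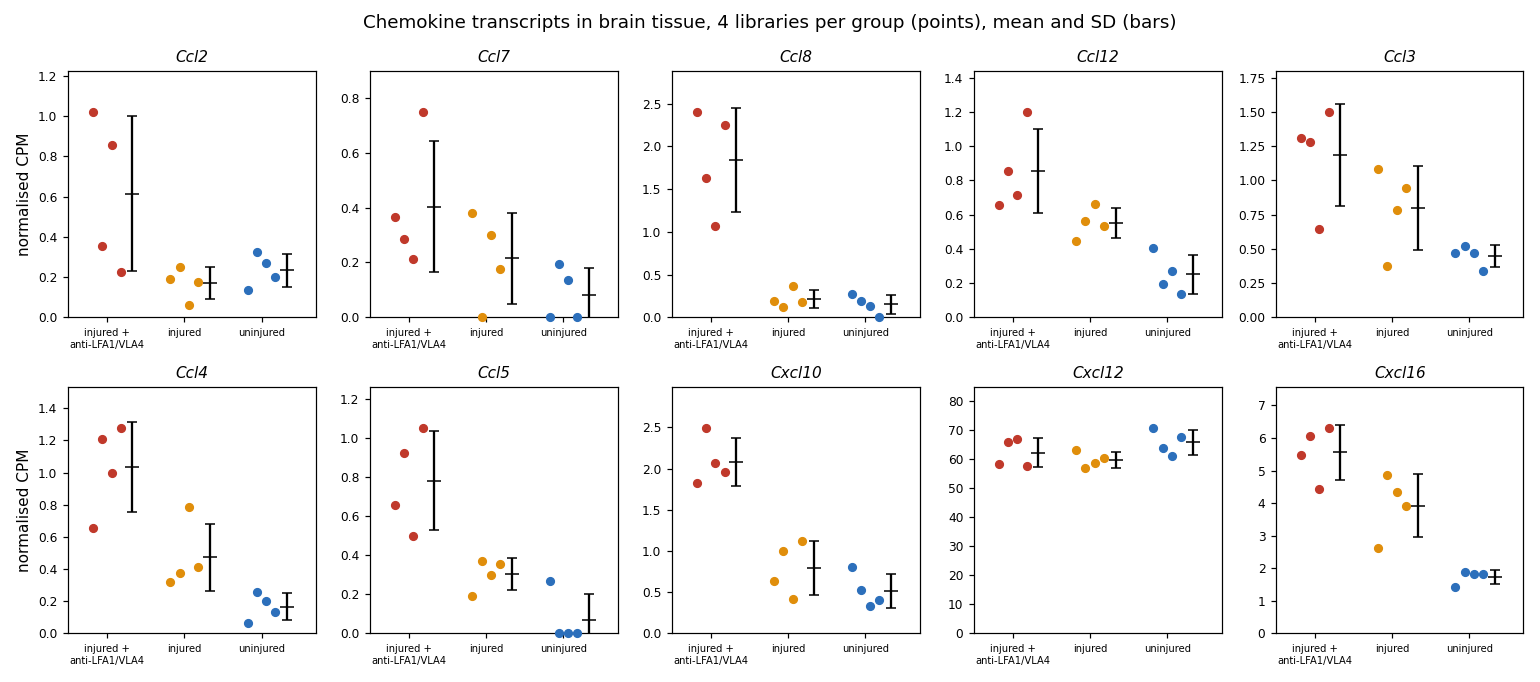
Normalised CPM of each of the 10 chemokines (1 panel each, own y axis starting at 0), with points for the 4 libraries of each group in replicate order and a bar for mean ± SD, which is cut off at 0. Antibody-treated libraries lie above all others for Ccl8, where they range from 1.07 to 2.41 CPM, and for Cxcl10, while the groups overlap for Cxcl12.

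The macrophage inflammatory chemokines Ccl3 and Ccl4 and the related Ccl5 were each lowest in uninjured mice. Ccl4 had 9, 17, 14 and 17 reads in antibody-treated, 5, 6, 13 and 7 reads in injured and 1, 4, 3 and 2 reads in uninjured mice. All libraries of either injured group lay above the uninjured ones, and injured replicate 3 reached into the antibody-treated range. Ccl4 was higher in antibody-treated than in uninjured mice by a log2 fold change of 2.58 (SE 0.41, edgeR adjusted p = 0.00131, or 0.00137 with no filter). Against injured mice the difference was 1.11 (SE 0.33, edgeR adjusted p = 0.0292, or 0.0408 with no filter). It did not pass without antibody-treated replicate 2 or 4 or injured replicate 1, 2 or 4 (edgeR adjusted p = 0.0579 to 0.0805), nor with a GC and length trend removed (0.0722) or with only these groups in the model (0.0527). Injured over uninjured mice gave 1.47 (SE 0.46, edgeR adjusted p = 0.0388). That call was lost without uninjured replicate 1, 3 or 4, injured replicate 2, 3 or 4 or antibody-treated replicate 2 (edgeR adjusted p = 0.0536 to 0.132), with no filter (0.0556), after correction for GC and length (0.0656) and in DESeq2's Wald test (0.0525).

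Ccl3, the neighbour of Ccl4 on the other strand, which also binds Ccr1, had 18, 18, 9 and 20 reads in antibody-treated, 17, 6, 13 and 16 reads in injured and 7, 8, 7 and 5 reads in uninjured mice. Every antibody-treated library lay above the uninjured ones, whereas injured replicate 2 fell among them. Antibody-treated over uninjured mice gave a log2 fold change of 1.38 (SE 0.35, edgeR adjusted p = 0.0260, or 0.0303 with no filter). That call was lost without any 1 of the 4 uninjured libraries or without antibody-treated replicate 1, 2 or 4 (edgeR adjusted p = 0.0505 to 0.0798). It was also lost with the replicate number as a block (edgeR adjusted p = 0.0521). Antibody-treated over injured mice gave 0.56 (SE 0.31, edgeR adjusted p = 0.213) and injured over uninjured mice 0.81 (SE 0.36, edgeR adjusted p = 0.116), and neither passed.

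Ccl5, which T cells and NK cells also make, had 9, 13, 7 and 14 reads in antibody-treated, 3, 6, 5 and 6 reads in injured and 4, 0, 0 and 0 reads in uninjured mice. Antibody-treated libraries did not overlap either other group, and all 4 uninjured reads came from replicate 1. Ccl5 failed the count filter. With no filter it was higher in antibody-treated than in uninjured mice (log2 fold change 3.39, SE 0.67, edgeR adjusted p = 0.00524), while antibody-treated over injured mice gave 1.34 (SE 0.49, edgeR adjusted p = 0.0801) and injured over uninjured mice 2.04 (SE 0.77, edgeR adjusted p = 0.0905). The fitted fold against uninjured mice rests on 4 reads over that group.

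Cxcl10, the interferon-induced ligand of Cxcr3, had 25, 35, 29 and 26 reads in antibody-treated, 10, 16, 7 and 19 reads in injured and 12, 8, 5 and 6 reads in uninjured mice. The antibody-treated libraries stood apart, and the injured and uninjured ones overlapped. Cxcl10 averaged 2.08 ± 0.289 CPM in antibody-treated, 0.795 ± 0.323 CPM in injured and 0.517 ± 0.208 CPM in uninjured mice (SD, n = 4 each). It was 2.60-fold higher in antibody-treated than in injured mice (log2 fold change 1.38, SE 0.28, edgeR adjusted p = 0.00429, or 0.00437 with no filter). Against uninjured mice it was 3.99-fold higher (SE 0.30 on the log2 scale, edgeR adjusted p = 0.000904, or 0.000654 with no filter). Injured over uninjured mice gave 0.62 (SE 0.35, edgeR adjusted p = 0.200), which did not pass. Art3 overlaps Cxcl10 on the other strand and shares 133 of its annotated exon bases (5.91%). Art3 had 52 to 65 reads in antibody-treated, 38 to 67 in injured and 49 to 72 in uninjured libraries, and the strand used in counting is not stated.

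The genes of most similar pattern to Cxcl10 over the 12 libraries were Mmp2, a protease that cleaves matrix and some chemokines, and Ms4a6c, a gene of monocytes and macrophages. The root-mean-square difference between centred log2 CPM profiles was 0.314 for Mmp2 and 0.336 for Ms4a6c, where Cxcl10 itself varied by 0.845 about its mean. They were the nearest among 14028 genes.

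Cxcl16, the membrane-bound ligand of Cxcr6 that also takes up oxidised lipid, was the only chemokine besides Cxcl12 with at least 21 reads in every library. It had 75, 85, 62 and 84 reads in antibody-treated, 41, 78, 72 and 66 reads in injured and 21, 29, 27 and 27 reads in uninjured mice. Every library of either injured group lay above every uninjured library, and the injured groups overlapped. Cxcl16 averaged 5.56 ± 0.837 CPM in antibody-treated, 3.93 ± 0.959 CPM in injured and 1.73 ± 0.216 CPM in uninjured mice (SD, n = 4 each). Antibody-treated over uninjured mice gave a log2 fold change of 1.68 (SE 0.20, edgeR adjusted p = 0.000114) and injured over uninjured mice 1.18 (SE 0.20, edgeR adjusted p = 0.00332).

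Antibody-treated over injured mice gave 0.50 for Cxcl16 (SE 0.17, edgeR adjusted p = 0.0571), just outside the threshold. It passed without injured replicate 2 (0.61, edgeR adjusted p = 0.0369) or without antibody-treated replicate 3 (0.61, edgeR adjusted p = 0.0220), with the GC and length trend removed (edgeR adjusted p = 0.0289), on unique reads (edgeR adjusted p = 0.0492) and in DESeq2's Wald test (0.0485). Zmynd15 overlaps Cxcl16 on the other strand and shares 552 annotated exon bases (18.3%), and it had 3 to 6 reads in antibody-treated, 4 to 8 in injured and 1 to 6 in uninjured libraries. The genes of most similar pattern to Cxcl16 were H2-Q6, an MHC class I gene, and Apoc1, an apolipoprotein, at root-mean-square differences of 0.203 and 0.210, where Cxcl16 varied by 0.710 about its mean.

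Cxcl12 was the one abundant gene of the 10 and passed no test. It had 801, 929, 941 and 769 reads in antibody-treated, 993, 915, 975 and 1024 reads in injured and 1053, 979, 909 and 1009 reads in uninjured mice. In normalised values it averaged 62.3 ± 4.95 CPM in antibody-treated, 59.9 ± 2.69 CPM in injured and 65.8 ± 4.30 CPM in uninjured mice (SD, n = 4 each), and the groups overlapped. The 95% interval of the log2 fold change was -0.10 to 0.21 for antibody-treated over injured mice, -0.23 to 0.08 for antibody-treated over uninjured mice and -0.29 to 0.02 for injured over uninjured mice. In TPM the injured mean was above the uninjured mean, and in CPM it was below, so no direction is given. Only 146 of 3440 Cxcl12 exon reads crossed a junction in antibody-treated, 184 of 3907 in injured and 153 of 3950 in uninjured mice, shares of 4.24, 4.71 and 3.87%. The genes of most similar pattern were Fam155a and Atp6v0a2, at root-mean-square differences of 0.0341 and 0.0357, where Cxcl12 varied by 0.0980.

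The receptors of these chemokines were looked at next. Ccr2, the receptor of Ccl2, Ccl7 and Ccl12 on inflammatory monocytes, had 23, 26, 29 and 22 reads in antibody-treated, 11, 11, 6 and 7 reads in injured and 10, 9, 5 and 6 reads in uninjured mice. The antibody-treated libraries lay above all others. Ccr2 reached the filter's count in every antibody-treated library but in too few others to pass without them. Its choice therefore leans towards higher values in antibody-treated mice, and the test values that follow carry that limit. Ccr2 was 3.34-fold higher in antibody-treated than in injured mice (log2 fold change 1.74, edgeR adjusted p = 0.000565) and 3.59-fold higher than in uninjured mice (edgeR adjusted p = 0.000413), while injured over uninjured mice gave 0.10 (edgeR adjusted p = 0.854).

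Cxcr4, the receptor of Cxcl12, was higher in antibody-treated than in injured mice (log2 fold change 0.67, edgeR adjusted p = 0.00908) and than in uninjured mice (0.98, edgeR adjusted p = 0.00157). Ackr3, which binds and removes Cxcl12, was higher by 0.34 against injured mice (edgeR adjusted p = 0.0131) and by 0.36 against uninjured mice (edgeR adjusted p = 0.0191). Both receptors therefore differed in the comparisons in which Cxcl12 passed no test. In TPM the Ackr3 libraries of the antibody-treated and injured groups overlapped, whereas in CPM they did not.

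Further receptors were below the count filter. Cxcr6, the receptor of Cxcl16, had 7, 4, 7 and 5 reads in antibody-treated, 3, 0, 1 and 1 reads in injured and 0, 1, 0 and 3 reads in uninjured mice, and with no filter it was higher in antibody-treated than in injured mice (log2 fold change 2.34, edgeR adjusted p = 0.0358). Against uninjured mice the value was 2.50 (edgeR adjusted p = 0.0537), which did not pass. Ccr1 had 16, 11, 8 and 3 reads in antibody-treated, 2, 5, 4 and 4 reads in injured and 4, 5, 7 and 7 reads in uninjured mice, and its antibody-treated replicate 4 lay within the range of the others (antibody-treated over injured mice 1.57, edgeR adjusted p = 0.0344 with no filter). Antibody-treated over uninjured mice gave 0.82 for Ccr1 (edgeR adjusted p = 0.277 with no filter), which did not pass. Cxcr3 totalled 10 reads in antibody-treated, 7 in injured and 7 in uninjured mice, and Ccr3 totalled 1, 3 and 0 reads in the same order of groups. Ccr8, which binds mouse Ccl8 and was looked up after the values of Ccl8 were seen, had 0 reads in all 12 libraries. By the Poisson limit given above, the expected count in each library could still be up to 3 reads.

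**Figure D4:**
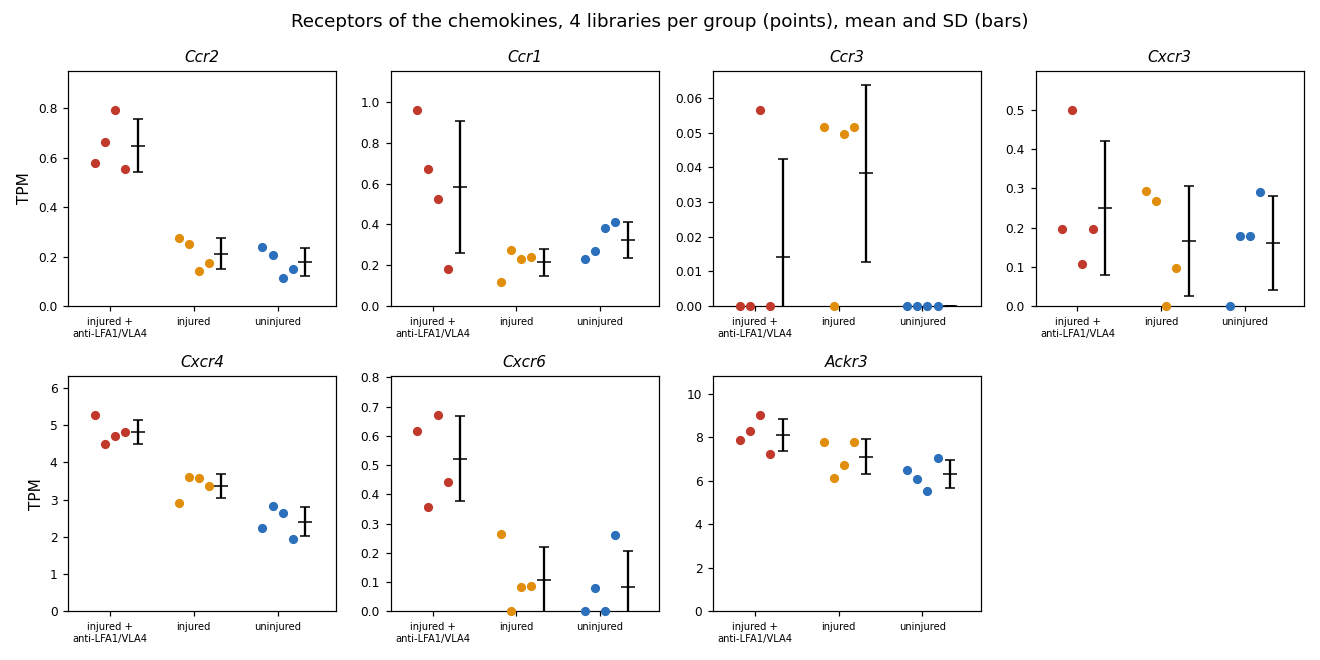
TPM of 7 receptors of the chemokines (1 panel each, own y axis starting at 0), with points for the 4 libraries of each group and a bar for mean ± SD, cut off at 0. Ccr2 and Cxcr4 are higher in all 4 antibody-treated libraries than in any other, and Ccr3 rests on 4 reads in all.

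Of 28 other chemokines 11 were tested. Against injured mice 2 were higher in antibody-treated mice, Ccl6 (log2 fold change 0.72, edgeR adjusted p = 0.00387) and Ccl9 (0.59, edgeR adjusted p = 0.0376), both made by myeloid cells, and Cx3cl1, the membrane-bound chemokine of neurons, was lower (-0.20, edgeR adjusted p = 0.0172). Against uninjured mice 4 were higher in antibody-treated mice, Ccl6 (1.41), Cxcl5 (1.26), Pf4 (1.28) and Ccl9 (0.66), and none was lower. Injured against uninjured mice had 2 higher, Ccl6 (0.69) and Cxcl5 (0.75). The counts are small, and genes called higher over all genes made up 10.9%, 6.3% and 11.9% in these comparisons.

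Among 25 tested genes of chemokine receptor signalling and processing, 6 were higher and 4 lower in antibody-treated than in injured mice, where 10.9% of all genes were higher and 10.7% lower. Mmp2 was higher by 1.52 (edgeR adjusted p = 1.47e-05) and Rac2, a GTPase of leukocyte movement, by 0.64 (edgeR adjusted p = 0.0140), while Gnai2, the inhibitory G protein subunit that couples the receptors, was lower (-0.26, edgeR adjusted p = 0.00956). Antibody-treated against uninjured mice had 7 higher and 1 lower, against 6.3% and 3.22% of all genes, and injured against uninjured mice 8 higher and 3 lower, against 11.9% and 11%. Fgr, a Src-family kinase of myeloid cells, led injured against uninjured mice at 2.01 (edgeR adjusted p = 0.00197).

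Of 19 tested regulators of chemokine transcription, 3 were higher and 2 lower in antibody-treated than in injured mice. These are shares near those of all genes (10.9% and 10.7%) and are not a result about the group, so its members are given singly. The interferon-response factors Irf7 (log2 fold change 0.61, edgeR adjusted p = 0.00884) and Irf9 (0.41, edgeR adjusted p = 0.00390) were among those higher. Fos (-0.65, edgeR adjusted p = 5.91e-05) and Jun (-0.42, edgeR adjusted p = 0.00114), which together form AP-1, were lower. Nfkbia, the NF-kappaB inhibitor that NF-kappaB itself induces, gave -0.05 (edgeR adjusted p = 0.761) and passed only against uninjured mice, at 0.48 for antibody-treated (edgeR adjusted p = 0.0158) and 0.53 for injured mice (edgeR adjusted p = 0.00788). In all, 6 of 19 were higher in antibody-treated than in uninjured mice and 8 of 19 in injured than in uninjured mice, with none lower, where 6.3% and 11.9% of all genes were higher.

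Markers of some cells that make or follow these chemokines moved with the groups. The marker counts here and below cover only markers that passed the count filter. Markers scarce outside the antibody-treated group passed it through those libraries, so their counts lean towards higher values there. No marker counts without the filter are given. The counts stand beside shares of all genes. These were 10.9% higher and 10.7% lower in antibody-treated than in injured mice. Antibody-treated against uninjured mice had 6.3% and 3.22%, and injured against uninjured mice 11.9% and 11%. The 11 markers of monocytes and border macrophages summed to 347.8 to 440.2 TPM in antibody-treated, 174.6 to 203.6 TPM in injured and 79.1 to 89.8 TPM in uninjured libraries, with none at 0 in any group. Of 8 tested, 4 were higher in antibody-treated than in injured mice, among them Lyz2 (log2 fold change 1.23) and Ms4a7 (1.06), 6 were higher than in uninjured mice, and the injured group was above the uninjured one for 3. The 9 neutrophil markers summed to 46.5 to 65.7 TPM in antibody-treated, 14.6 to 17.7 TPM in injured and 7.69 to 10.8 TPM in uninjured libraries, with Ly6g at 0 in every group. Of 5 tested, 4 were higher in antibody-treated than in injured mice, 5 than in uninjured mice and 1 in injured than in uninjured mice. With sums this low outside the antibody-treated group, the filter's lean applies to these neutrophil counts.

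The 7 microglia markers summed to 366.1 to 375.8 TPM in antibody-treated, 327.2 to 355.7 TPM in injured and 290.6 to 312.5 TPM in uninjured libraries, with 3 of 7 higher in antibody-treated than in injured mice. Against uninjured mice 2 were higher in antibody-treated mice, while 1 was higher and 2 were lower in injured mice. The 13 T and NK cell markers summed to 13.0 to 14.9 TPM in antibody-treated, 12.8 to 15.0 TPM in injured and 13.9 to 15.0 TPM in uninjured libraries, and only 2 of them could be tested. None was higher in any comparison, and Cd4 was lower in antibody-treated and in injured than in uninjured mice. Gzma was at 0 in the antibody-treated group, Ncr1 in the injured group, and Cd8b1, Nkg7, Gzma and Ncr1 in the uninjured group. The 7 B and plasma cell markers, none at 0 in the antibody-treated group and Ms4a1 at 0 in the uninjured group, summed to 147.4 to 204.1 TPM in antibody-treated, 26.0 to 30.9 TPM in injured and 24.7 to 26.4 TPM in uninjured libraries. Only 3 of the 7 could be tested, so the sum does not speak for the whole list. Of these, 2 were higher in antibody-treated mice than in either other group, and none was called between injured and uninjured mice.

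Markers of blood and of tissue around the brain also differed. The 8 fibroblast and meninges markers summed to 208.3 to 254.0 TPM in antibody-treated, 79.4 to 98.6 TPM in injured and 59.6 to 63.1 TPM in uninjured libraries, and 5 of 8 were higher in antibody-treated than in injured mice. The 5 red blood cell markers summed to 573.3 to 948.3, 188.2 to 216.1 and 131.9 to 172.8 TPM in the same order of groups, with 5 of 5 higher in antibody-treated than in injured mice. The 7 skeletal muscle markers summed to 254.3 to 357.8, 176.7 to 240.1 and 131.9 to 181.5 TPM, with 6 of 7 higher in antibody-treated than in injured mice (all but Pvalb, which interneurons also express). Ckm, the creatine kinase of muscle, averaged 13.0 ± 1.79 CPM in antibody-treated, 0.0159 ± 0.0318 CPM in injured and 0.0498 ± 0.0641 CPM in uninjured mice (SD, n = 4 each). At these levels Ckm passed the filter only through the antibody-treated libraries and so had to be called on the side of higher values there. The 6 choroid plexus markers were higher in antibody-treated than in injured mice in 6 of 6, summing to 2314 to 3502, 1677 to 2208 and 1848 to 2396 TPM. None of these markers was at 0 throughout a group. Markers of brain tissue were present throughout, with none at 0. Of the 8 neuron markers, 2 were higher and 2 lower in antibody-treated than in injured mice. Against uninjured mice 2 were lower in antibody-treated and 4 in injured mice, with none higher. The neuron markers summed to 4866 to 5968 TPM in antibody-treated, 5189 to 6013 TPM in injured and 5612 to 6171 TPM in uninjured libraries. The 7 endothelial markers summed to 219.8 to 255.6, 225.4 to 248.5 and 195.6 to 206.5 TPM in the same order of groups, and none of them was called in antibody-treated against injured mice. Against uninjured mice 1 was higher and 1 lower in either injured group. Their median log2 fold change was -0.15 in antibody-treated and -0.10 in injured mice, below 0 despite the higher sums. Of the 7 thalamus markers, 1 was higher and 1 lower in antibody-treated than in injured mice, 5 were higher in antibody-treated than in uninjured mice and 4 in injured than in uninjured mice. The part of any of these cell types, or of the tissue taken into the cube, in the chemokine differences was not tested.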

How the data were processed

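Bulk total RNA of 12 mice was read with a stranded total RNA kit from 500 ng each, per the labels' protocols. GRCm38 is the build in the submitters' processing notes, beside the tools Trimmomatic 0.39, CASAVA 1.8.2 and FastQC 0.11.8. For the aligner, the counter and the use of strand the entry is: not given in the sources used here. The authors deposited whole-number counts of total, unique, junction and intron reads per gene and, per the file headers, TPM. All 25749 gene IDs matched GENCODE M21.

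Total exon reads were filtered with filterByExpr by group (minimum count 10), scaled by TMM and fitted in edgeR 4.0.16 (R 4.3.3) with group as the only term over 12 libraries (9 residual degrees of freedom). Tests were two-sided, with Benjamini-Hochberg adjustment over all tested genes at 0.05. Levels are normalised CPM (mean ± SD, n = 4) or deposited TPM. Alternatives were no filter, library size alone, size factors or the Wald test of DESeq2 1.42.0, only the compared groups, a replicate block, unique reads, a GC and length trend removed (mgcv 1.9.3), each library left out, and, chosen after seeing the data, leaving out the pair of libraries with extreme scores on principal component 1. The code was tested on simulated counts with 200 changed genes.

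The 10 genes, the other gene lists and the tests were chosen with earlier results of these data known. Named genes were all 10 chemokines, their receptors, up to 4 called genes of smallest p per list and comparison, and for chemokines above 1 CPM the 2 genes of most similar log2 CPM profile (prior count 2). Results for 2 of these genes are not reported here.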

Additional observations from a re-analysis of the deposited data

Results flagged for a closer look

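In 2 of 30 groups of 4 libraries 1 library stood apart from the other three by Dixon's test at its 95% critical value, a rate that chance gives in about 1 in 20 groups. Both were uninjured replicate 1. Ccl5 was at 0.269 CPM there and at 0 CPM in the other uninjured libraries. With the others all at 0 the ratio of the test is 1 for any read, so this flag cannot be set against that rate. Cxcl16 was at 1.41 CPM there, against 1.81 CPM in the nearest of the other uninjured libraries. The same library had the lowest score on principal component 1.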

How the results depend on the processing

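The count of chemokines called higher in antibody-treated against injured mice was 3 and ranged from 2 to 5 with 1 library left out, 5 being without antibody-treated replicate 3, when Ccl5 also passed the filter (7 or 8 chemokines were tested with 1 library left out). In antibody-treated against uninjured mice it was 6, with a range of 5 to 7 when 1 library was left out and 3 with only these groups in the model, where 4 chemokines passed the filter and Ccl12, Ccl3 and Ccl4 were not tested. In injured against uninjured mice it was 3 and ranged from 1 to 3 with 1 library left out. It was 1 with no filter, 1 with only these groups in the model (of 3 that passed the filter, with Ccl12, Ccl8, Ccl3 and Ccl4 not tested) and 1 in DESeq2's Wald test, and 1 without uninjured replicate 3 or 4, injured replicate 2, 3 or 4 or antibody-treated replicate 2. Without the pair of libraries with extreme scores on principal component 1 the counts were 2, 5 and 2 in antibody-treated against injured, antibody-treated against uninjured and injured against uninjured mice. Ccl8 and Cxcl10 kept their calls against both other groups in all 21 alternatives run, as did Cxcl16 in both comparisons with uninjured mice. For Ccl8 the filter in these alternatives chose it through the antibody-treated libraries, and the choice of Cxcl10 leans the same way. Only the fit with no filter is free of that choice, so the run of calls adds no separate support. Cxcl12 in antibody-treated against uninjured mice was -0.08 (log2) and became 0.0701 after correction for GC and length, and passed in neither. The causes were not tested. Over single chemokines and alternatives, 390 results kept direction and side of the threshold, 38 lost and 5 gained a call, and 1 turned. With the replicate number as a block the counts were 3, 5 and 2, Ccl3 not being called in the second comparison and Ccl12 not in the last. Deviations of same-numbered libraries from their group means correlated between -0.532 and 0.434. The labels state no pairing, so the main model did not pair the samples by number. Whether same-numbered libraries share a batch was not tested. Depth limits all chemokines of a few reads per library, such as Ccl7, Ccl5, Ccl4 and Ccl8 in uninjured mice.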

Other observations

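Some chemokines below the count filter also differed with no filter. Cxcl13, which draws B cells, totalled 49 reads in antibody-treated, 6 in injured and 3 in uninjured mice, and was higher in antibody-treated than in injured mice (log2 fold change 3.17, edgeR adjusted p = 0.000412) and than in uninjured mice (3.93, edgeR adjusted p = 0.000162). Cxcl9, an interferon-induced ligand of Cxcr3 like Cxcl10, totalled 25 reads in antibody-treated, 9 in injured and 5 in uninjured mice and was higher in antibody-treated than in uninjured mice (2.33, edgeR adjusted p = 0.0417), while antibody-treated over injured mice gave 1.67 (edgeR adjusted p = 0.0632), which did not pass. Ccl11, an eosinophil attractant, totalled 25, 9 and 2 reads in the same order of groups and was higher in antibody-treated than in uninjured mice (3.46, edgeR adjusted p = 0.0117), while antibody-treated over injured mice gave 1.68 (edgeR adjusted p = 0.0658), which did not pass. Cxcr2, the receptor by which neutrophils follow Cxcl1 and Cxcl2, totalled 28 reads in antibody-treated, 7 in injured and 1 in uninjured mice and was higher in antibody-treated than in injured mice (2.17, edgeR adjusted p = 0.0354) and than in uninjured mice (4.37, edgeR adjusted p = 0.00752). These genes were chosen for mention after their values were seen.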
